A study of Saccharomyces cerevisiae with 5 samples.

Results

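The genes described here encode hexose transporters and glucose sensors of Saccharomyces cerevisiae. They were taken as the probes whose platform symbol is HXT1, HXT2, HXT3, HXT4, HXT5, HXT6, HXT7, HXT11, SNF3 or RGT2. All 10 symbols had 1 probe each, out of 6249 genes and unnamed probes on the array. The 8 HXT members are the low-affinity transporters HXT1 and HXT3, the higher-affinity transporters HXT2, HXT4, HXT6 and HXT7, the slow-growth and starvation transporter HXT5, and HXT11, a family member also linked to drug sensitivity.

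Poly(A) RNA was compared on 5 two-colour arrays, with 1 array for each comparison. Cells were in log phase in synthetic complete medium, and stress meant 20 min in either 0.4 mM hydrogen peroxide or 0.4 M KCl. On 3 arrays a siw14 deletion strain (labelled Siw14D) was set against wild-type BY4741, with neither strain stressed, both in peroxide or both in KCl. For the wild type on the stressed mutant arrays, the titles and treatment entries give the stress, but the source name gives only the medium. SIW14 encodes a phosphatase of inositol pyrophosphates, and the series asks how its loss bears on the environmental stress response. On the other 2 arrays a strain named ACY044, titled as wild type, in peroxide or in KCl was set against the same strain unstressed. The genotype of ACY044, and whether it carries the same alleles as BY4741, are not given in the sources used here. The labels do not say whether more than 1 culture was pooled or whether the deletion strain is 1 clone.

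Every value below is the log2 of Cy5 over Cy3 unless it is called a fold. Cy5 held the mutant or the stressed cells on every array. A positive value therefore means higher in the siw14 strain, or higher under stress. No array had its dyes swapped, so differences between the dyes and between the samples cannot be told apart. With 1 array for each comparison there is no spread between replicates, no test and no p-value, and neighbouring ranks cannot be told apart. A gene was counted where its ratio reached 2-fold in either direction (1 on the log2 scale), a threshold of size only. The RNA came from whole cultures, so a change in some cells and a smaller change in all cells cannot be told apart. The ratios give no level, so they do not say which transporter was most abundant.

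Yeast takes up glucose by facilitated diffusion through the Hxt proteins. Low-affinity carriers serve when glucose is plentiful and high-affinity carriers when it is scarce. The membrane proteins Snf3 and Rgt2 look like transporters but act as sensors, Snf3 for low and Rgt2 for high glucose. Their signal, through the casein kinases Yck1 and Yck2, leads to loss of the corepressors Mth1 and Std1, which otherwise let the repressor Rgt1 hold HXT genes off. A separate branch, in which the kinase Snf1 opposes the repressor Mig1, keeps HXT2, HXT4, HXT6, HXT7 and SNF3 low when glucose is abundant.

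SIW14 checked the labels. It lay at -2.07, -1.66 and -2.06 on the mutant arrays without stress, in peroxide and in KCl, and at 0.28 and -0.22 on the wild-type arrays in peroxide and KCl. The sources used here do not say where its probe lies relative to the deletion. Between 1.63% and 10.4% of yeast probes had no value on an array, and array medians over all genes lay between -0.02 and 0.03. The E1A control features, which match no yeast gene, had medians of 2.08, 1.17 and 0.98 on the mutant arrays without stress, in peroxide and in KCl, over 3, 7 and 9 features with a value. Single features ran from 1.68 to 2.35 without stress, from -2.01 to 2.28 in peroxide and from -0.86 to 2.54 in KCl. The E1A medians were -0.37 and 0.15 on the wild-type arrays in peroxide and KCl, over 10 and 6 features. URA3 and LEU2, which are deleted in BY4741 as commonly described, lay at 3.02 and 1.84 on the unstressed mutant array. In peroxide they lay at 1.63 and 2.24, and in KCl at 2.53 and 2.10. HIS3 and MET17, which are also auxotrophic marker genes, had no value on any mutant array. On the wild-type arrays in peroxide and KCl, URA3 lay at -0.42 and -0.20 and LEU2 at 0.37 and -0.11. The part of these features in the members' high values on the mutant arrays was not tested.

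**Figure D1:**
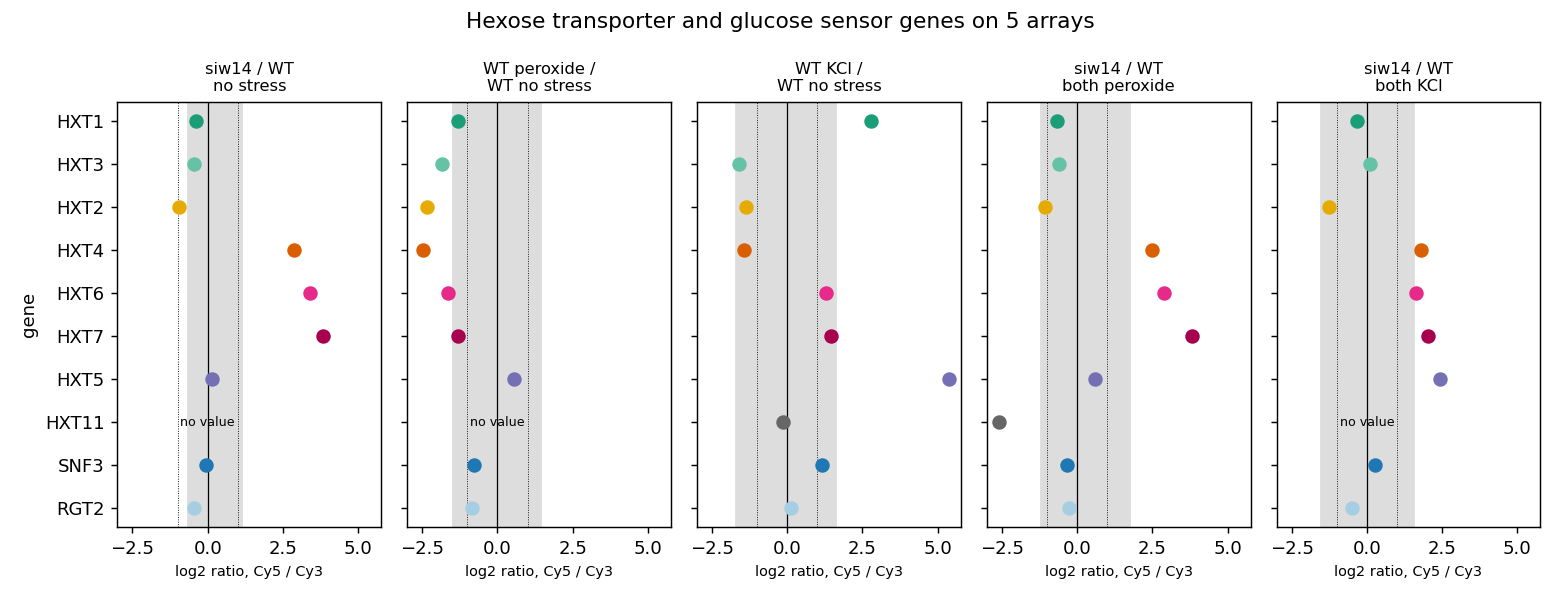
Each panel is 1 array and each point the log2 ratio (x axis, Cy5 over Cy3) of 1 gene (y axis); grey bands span the 5th to 95th percentile of all genes and dotted lines mark 2-fold. HXT4, HXT6 and HXT7 lie right of the band on all 3 siw14 arrays, and HXT5 and HXT1 lie far right in KCl-treated wild type at 5.37 and 2.78.

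In unstressed siw14 cells, 3 transporter genes of higher affinity stood well above wild type while the other members lay near or below it. Among the 9 members measured, 3 reached 2-fold higher, where 6.18% of all genes did, and 0 reached 2-fold lower, where 1.55% did. Once the arrays were scaled to a common spread, 3 members were higher and 1 lower, HXT2 at -1.71, against 12.3% and 7.12% of all genes. HXT7 lay at 3.82, or 14.2-fold higher, and had the 5th highest ratio of 5603 genes. HXT6 lay at 3.41, or 10.7-fold higher, and ranked 13th. HXT4 lay at 2.87, or 7.29-fold higher, and ranked 32nd. All 3 lay above the 95th percentile of all genes, which was 1.16.

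HXT2, also a carrier of high affinity, went the other way from those 3 genes. It lay at -0.96 in unstressed siw14 cells, or 1.95-fold lower, just inside the 2-fold line and 98th from the lowest ratio. The low-affinity genes HXT1 and HXT3 lay at -0.40 and -0.44, or 1.32-fold and 1.36-fold lower, and HXT5 at 0.13. The sensor genes SNF3 and RGT2 lay at -0.06 and -0.44. The median of the 9 members was -0.06 against 0.00 for all genes, which hides a span of 4.79 between HXT7 and HXT2.

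With both strains in peroxide, the same 3 transporter genes stood above wild type. Of the 10 members, 3 were at least 2-fold higher, against 12.8% of all genes, and 2 were at least 2-fold lower, against 8.30%. HXT7 lay at 3.83, or 14.2-fold higher, and ranked 35th of 5806 genes. HXT6 lay at 2.90, or 7.49-fold higher, and HXT4 at 2.49, or 5.62-fold higher. HXT2 lay at -1.06, or 2.09-fold lower. HXT11 lay at -2.60, or 6.07-fold lower, the 19th lowest ratio on that array. HXT11 had a value on only 1 other array, the KCl-treated wild type, where it lay at -0.14, so its low ratio has no counterpart in the other mutant comparisons. HXT1, HXT3 and HXT5 lay at -0.65, -0.59 and 0.58, and SNF3 and RGT2 at -0.33 and -0.28, all within 2-fold of wild type.

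With both strains in KCl, HXT5 joined the genes that stood above wild type, and the 3 others were less far above it. Of the 9 members measured there, 4 were at least 2-fold higher, against 11.4% of all genes, and 1 was at least 2-fold lower, against 11.0%. HXT5 lay at 2.43, or 5.39-fold higher, and ranked 95th of 5816 genes. HXT7 lay at 2.02, or 4.07-fold higher, HXT4 at 1.81, or 3.50-fold higher, and HXT6 at 1.63, or 3.10-fold higher. HXT2 was the member at least 2-fold lower, at -1.25 or 2.38-fold. HXT1 and HXT3 lay at -0.32 and 0.12, SNF3 at 0.28 and RGT2 at -0.50.

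**Figure D2:**
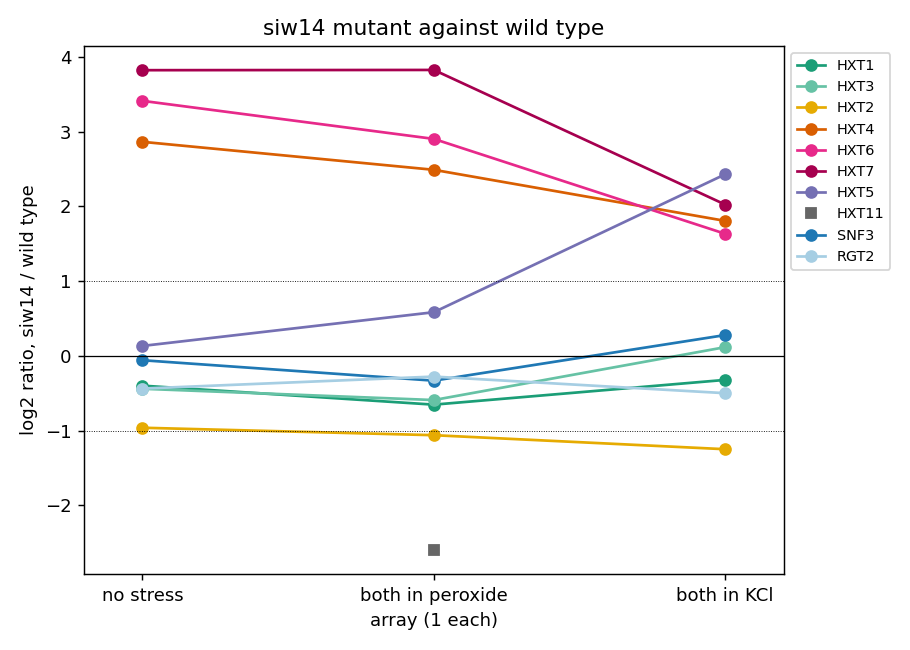
The y axis gives the log2 ratio of siw14 over wild type on the 3 mutant arrays named on the x axis; each point is 1 gene on 1 array, lines join the points of a gene only to guide the eye, and dotted lines mark 2-fold. HXT7, HXT6 and HXT4 lie at 1.63 or more on all 3 arrays, HXT2 lies between -0.96 and -1.25, and HXT5 goes from 0.13 without stress to 2.43 in KCl.

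Across the 3 mutant arrays, 3 of the 9 members with a value on each were at least 2-fold higher every time, namely HXT4, HXT6 and HXT7. This was so for 4.35% of 5523 genes. At least 2-fold lower on all 3 arrays were 0 members, against 0.507% of genes. HXT2 came closest, with ratios of -0.96, -1.06 and -1.25. The narrowest span over these arrays was that of RGT2, at 0.22, followed by HXT2 at 0.29 and HXT1 at 0.33. HXT5 had the widest, at 2.30.

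To see whether the mutant's difference from wild type changed with stress, the unstressed mutant ratio was subtracted from each stressed one. By the labels these arrays set the same pair of strains against each other and name no shared sample. For peroxide, of 9 members 0 reached 2-fold in either direction, where 5.09% of all genes were higher and 3.94% lower. They ran from -0.51 for HXT6 to 0.45 for HXT5, and HXT7 was at 0.00. These values depend on the scale of the arrays. Scaled to a common spread, 3 of 9 members were at least 2-fold lower and 0 higher, against 6.24% and 5.66% of all genes, and HXT7 lay at 6.79 without stress and 3.42 in peroxide.

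For KCl the differences were wider and went both ways. Of 9 members, 1 was at least 2-fold higher, against 4.06% of all genes, and 3 were at least 2-fold lower, against 7.83%. The gain for HXT5 was 2.30, which ranked 12th of 5544 genes. HXT7, HXT6 and HXT4 had differences of -1.80, -1.78 and -1.06. Their ratios to wild type in KCl were thus below those without stress, though still above 2-fold. The other 5 members lay between -0.29 for HXT2 and 0.56 for HXT3.

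Wild-type cells in peroxide had nearly every member below its unstressed level. Of 9 members with a value, 6 were at least 2-fold lower, against 11.3% of all genes, and 0 were at least 2-fold higher, against 10.7%. HXT4 lay at -2.48, or 5.59-fold lower, and had the 24th lowest ratio of 6053 genes. HXT2 lay at -2.35, or 5.10-fold lower, and ranked 44th from the lowest. HXT3 lay at -1.85, or 3.60-fold lower, HXT6 at -1.64, or 3.12-fold lower, and HXT1 and HXT7 each at -1.31, or 2.48-fold lower. Low-affinity and higher-affinity carriers thus stood on the same side. SNF3 and RGT2 lay at -0.78 and -0.85, short of 2-fold, and HXT5, at 0.55, was the 1 member above 0.

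Wild-type cells in KCl had members far apart from each other. Of the 10 members, 5 were at least 2-fold higher, against 11.5% of all genes, and 3 were at least 2-fold lower, against 11.7%. HXT5 lay at 5.37, or 41.4-fold higher, and had the 16th highest ratio of 6147 genes. HXT1 lay at 2.78, or 6.89-fold higher, and ranked 99th. HXT7 and HXT6 lay at 1.45 and 1.30, or 2.73-fold and 2.47-fold higher, and the sensor gene SNF3 at 1.16, or 2.23-fold higher. HXT3 lay at -1.60, or 3.03-fold lower, HXT4 at -1.44, or 2.72-fold lower, and HXT2 at -1.37, or 2.59-fold lower. RGT2 and HXT11 lay at 0.12 and -0.14.

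The low-affinity pair therefore parted in KCl, with HXT1 above HXT3 by 4.38 on the log2 scale. They differed by 0.04, -0.06 and -0.44 on the mutant arrays without stress, in peroxide and in KCl, and by 0.53 in wild type in peroxide. HXT4 and HXT2 did the reverse. HXT4 minus HXT2 was -0.13 and -0.07 in wild type in peroxide and KCl, but 3.83, 3.55 and 3.06 on the mutant arrays without stress, in peroxide and in KCl. The sensor genes differed most in wild type in KCl, where SNF3 exceeded RGT2 by 1.04.

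**Figure D3:**
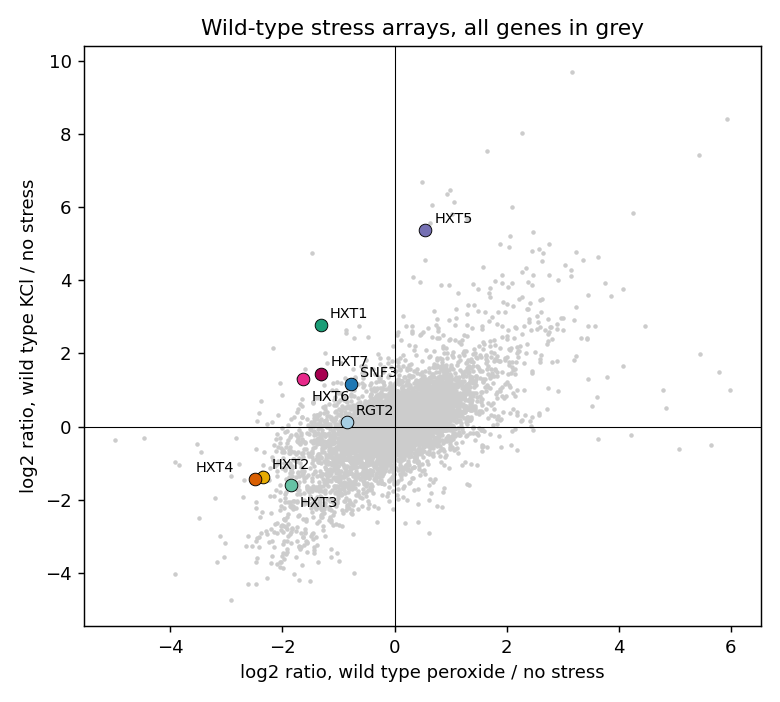
Each grey point is 1 gene, with its log2 ratio in wild type in peroxide on the x axis and in KCl on the y axis, both against unstressed cells of the same strain; coloured points are the members. HXT1, HXT6, HXT7 and SNF3 lie at upper left, HXT2, HXT3 and HXT4 at lower left, and HXT5 alone among the members lies right of 0.

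Several members sit side by side on the chromosomes, in the RefSeq table of assembly R64. On chromosome VIII, HXT1 and HXT5 have 0 annotated genes between them, and HXT4 and HXT1 have 1. These 3 neighbours nonetheless had ratios of 5.37 (HXT5), 2.78 (HXT1) and -1.44 (HXT4) in wild type in KCl. In the unstressed mutant it was HXT4 that stood out, at 2.87 against 0.13 for HXT5 and -0.40 for HXT1. On chromosome IV, HXT6 and HXT7 are adjacent, and HXT3 is 1 annotated gene away from HXT6. HXT7 exceeded HXT6 by 0.15 to 0.92 over the 5 arrays, whereas HXT3 did not follow them on the mutant arrays. Nor did it in wild type in KCl, where HXT3 lay at -1.60 against 1.30 for HXT6 and 1.45 for HXT7. In wild type in peroxide HXT3, HXT6 and HXT7 were all at least 2-fold lower. The HXT6 and HXT7 sequences are known to be almost the same, so the 2 probes can read each other's RNA and are not independent.

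The genes whose 5 ratios lay closest to those of a member were sought by Euclidean distance over the 5 arrays, among 3806 named genes with a value on each. HXT6 and HXT7 were each other's nearest gene, at a distance of 1.14. After these came RIP1 and SDH2 for HXT6, at 2.31 and 2.35, and HXT17 and BUD25 for HXT7, at 2.84 and 2.87. For HXT4 they were NDE1, HAP4 and URA3, at 2.5, 2.59 and 2.66, which is farther than for most members. For HXT5 they were DAK1, SIP18 and GRE3, at 1.69, 2.35 and 2.48. For HXT1 they were ENA1, ENA2 and PRM10, at 1.14, 1.5 and 1.67. ENA1, a sodium pump gene, lay at 2.0 in wild type in KCl and at -1.23 in peroxide, where HXT1 lay at 2.78 and -1.31.

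The other 4 members had closer genes. For HXT2 they were TRM1, ATM1 and RPC82, at 0.71, 0.78 and 0.79, and for HXT3 they were ERG11, SAM3 and SYG1, at 0.55, 0.56 and 0.74. For SNF3 they were ESBP6, MDS3 and DBR1, at 0.18, 0.44 and 0.55, and for RGT2 they were SYS1, CPT1 and MET30, at 0.20, 0.20 and 0.26.

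Of the 11 other family members, counting the galactose carrier GAL2 and the glycerol importer STL1, the siw14 arrays had values for 5, 6 and 9 without stress, in peroxide and in KCl. HXT17 lay at 2.13, 2.53 and 2.5 on those arrays, and at 0.11 and 0.33 in wild type in peroxide and KCl. HXT12, a pseudogene in the reference strain, lay at 1.10, 1.42 and 1.69 on the mutant arrays and at -0.21 and 0.04 in wild type. These stand beside the medians of the E1A controls and the URA3 and LEU2 values given above, which were also high on the mutant arrays. Single E1A features lay on both sides of 0 on the stressed mutant arrays. GAL2 lay at -1.02, -0.98 and -1.33 on the mutant arrays, and at -0.01 and -0.34 in wild type.

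HXT13, HXT15 and HXT10 lay at -3.21, -1.09 and 1.74 in the mutant in KCl. With HXT12, HXT17 and GAL2 counted, 3 of 9 reached 2-fold higher there and 3 of 9 reached 2-fold lower, against 11.4% and 11.0% of all genes. HXT13 and HXT15 had no value on the other mutant arrays, and HXT10 lay at -0.20 in peroxide. HXT8 and HXT9 stayed within 2-fold on all 5 arrays, from -0.42 to 0.69 and from -0.63 to 0.27. HXT14 and HXT16 had no value on any mutant array. STL1 lay at 6.68 in wild type in KCl, the 1 of the 11 at least 2-fold higher there, where 11.5% of all genes were. In the mutant against wild type in KCl STL1 lay at 0.11. In wild type in peroxide 0 of 9 reached 2-fold in either direction, where 10.7% of all genes were higher and 11.3% lower.

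Genes that pass on the sensors' signal numbered 9. Of these, counting YCK1, YCK2, MTH1, STD1, RGT1, the ubiquitin ligase gene GRR1, the corepressor genes CYC8 and TUP1 and the Mediator kinase gene SSN3, 1 was at least 2-fold higher and 0 lower in the unstressed mutant. The shares over all genes were 6.18% higher and 1.55% lower there, so the counts on that array are near the background. The gene was MTH1, whose product is an Rgt1 corepressor, at 1.01. In KCl it lay at 2.10 in the mutant, again the 1 of 9 at 2-fold or more, against 11.4% of all genes higher, but at -0.02 in peroxide. In wild type MTH1 lay at -1.65 in peroxide, where SSN3 lay at -1.32, and at 0.26 in KCl, where 0 of 9 reached 2-fold. MTH1 and SSN3 were the 2 of 9 at least 2-fold lower in peroxide, against 11.3% of all genes. The shares over all genes in KCl were 11.5% higher and 11.7% lower. STD1, related to MTH1, stayed within 2-fold throughout, from -0.46 to 0.55, and RGT1 ran from -0.17 to 0.72. In the mutant in peroxide TUP1 and CYC8 were the 2 of 9 at least 2-fold lower, at -1.29 and -1.05, against 8.30% of all genes. The median of the 9 lay between -0.56 and 0.17 over the 5 arrays.

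Hexose kinase genes, whose products trap the imported sugar as its phosphate, also lay on both sides of wild type in the unstressed mutant. HXK1 lay at 3.52, the glucokinase gene GLK1 at 2.01 and the related EMI2 at 1.43, but HXK2, the main hexokinase gene of cells growing on glucose, at -0.43. Thus 3 of 4 were at least 2-fold higher there, against 6.18% of all genes. In the mutant in peroxide HXK1 and EMI2 lay at 3.16 and 1.71, HXK2 at 0.02, and GLK1 had no value. With both strains in KCl HXK1 and GLK1 lay at 2.28 and 1.95, and EMI2 and HXK2 at 0.18 and -0.54. At least 2-fold higher were 2 of 3 in peroxide and 2 of 4 in KCl, against 12.8% and 11.4% of all genes. In wild type, unlike most transporter genes, HXK1, GLK1 and EMI2, 3 of the 4, were at least 2-fold higher in peroxide as well as in KCl. Over all genes 10.7% were higher in peroxide and 11.5% in KCl. HXK1, GLK1 and EMI2 lay at 1.79, 3.36 and 2.15 in peroxide and at 3.97, 4.55 and 2.73 in KCl, while HXK2 lay at 0.20 and 0.38.

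**Figure D4:**
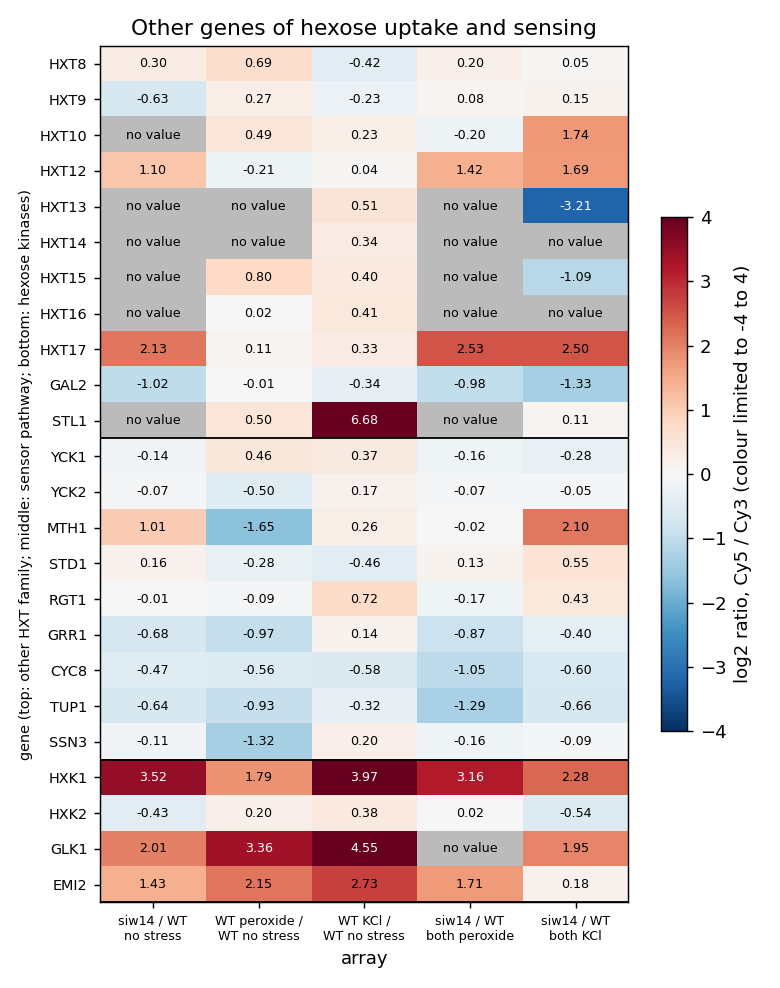
Colour and printed number give the log2 ratio of each gene (rows) on each array (columns), grey cells having no value; black lines separate other HXT family genes, the sensor pathway and hexose kinases. HXT17 and HXK1 stand at 2.13 or more and 2.28 or more on the 3 siw14 arrays, and most sensor pathway genes lie within 2-fold.

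Of the Snf1 and Mig1 pathway genes, 0 of 12 with a value reached 2-fold in either direction in the unstressed mutant, with a median of 0.21. Over all genes 6.18% were higher there and 1.55% lower, so the count is near the background. With both strains in peroxide 1 of 12 was at least 2-fold higher, the repressor gene NRG1 at 1.36, and 1 lower, SIP1, for a Snf1 subunit, at -1.34. Over all genes 12.8% were higher there and 8.30% lower, so these 2 counts are also near the background. With both in KCl 3 of 13 were at least 2-fold higher, against 11.4% of all genes. They were NRG1 at 1.88, NRG2 at 1.29 and SIP2, for another Snf1 subunit, at 1.13. In wild type in KCl 2 of 13 were at least 2-fold higher, REG2 at 1.38 and SIP2 at 1.37, and in peroxide 1 of 13 was lower, SIP1 at -1.16. Over all genes 11.5% were higher in KCl and 11.3% lower in peroxide, so both counts are near the background. MIG1 lay between -0.59 and 0.80 over the 5 arrays.

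Genes under glucose repression were in part above wild type in the mutant. Without stress, 4 of 14 measured in the mutant reached 2-fold higher, against 6.18% of all genes, and 0 lower, against 1.55%. The median of the 14 was 0.12. The glyoxylate cycle gene ICL1 lay at 1.76, the respiration activator gene HAP4 at 1.52, the gluconeogenic gene FBP1 at 1.45 and the activator gene CAT8 at 1.24. SUC2, for invertase, and ADH2, for the ethanol-consuming alcohol dehydrogenase, lay at -0.46 and -0.91. With both strains in peroxide 4 of 17 were at least 2-fold higher and 1 lower, against 12.8% and 8.30% of all genes. With both in KCl 6 of 17 were higher and 0 lower, against 11.4% and 11.0%, HAP4 lying at 2.55 and CAT8 at 2.30. In wild type in peroxide 0 of 17 were at least 2-fold higher and 1 lower, against 10.7% and 11.3% of all genes. The gene lower was HAP4, at -1.11. In wild type in KCl 6 of 17 were higher and 0 lower, against 11.5% and 11.7% of all genes, ADR1 leading at 2.37.

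Of the 5 genes on the list for removal of transporters from the membrane that had a named probe, 0 reached 2-fold in the unstressed mutant or in wild type in peroxide. Over all genes 6.18% were higher and 1.55% lower in the former, and 10.7% and 11.3% in the latter. In wild type in KCl 2 of the 5 were at least 2-fold higher, against 11.5% of all genes. These were CSR2 at 1.97 and ROD1 at 1.45, both for adaptors of the ubiquitin ligase Rsp5. They lay at 1.03 and 1.05 in the mutant in peroxide, and at 1.59 and 0.97 in the mutant in KCl. RSP5 itself ran from -0.69 to 0.58 over the 5 arrays. Of 12 genes that carry a glucose signal to cAMP, 1, 3 and 3 were at least 2-fold higher in the mutant without stress, in peroxide and in KCl, and 0 lower on any array. Over all genes 1.55% to 11.7% were lower across the 5 arrays. On the 3 mutant arrays 6.18%, 12.8% and 11.4% were higher, so the first count is near the background. TPK2, a catalytic subunit gene of protein kinase A, lay at 1.01, 2.19 and 1.31 on those arrays. In wild type 3 of 12 were higher in peroxide and 4 in KCl, against 10.7% and 11.5% of all genes, TPK2 lying at 1.40 and 1.51.

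Carriers of other sugars, inositol and sugar nucleotides with a named probe numbered 5. MAL31, a maltose carrier gene, lay at 1.16, 1.44 and 1.72 in the mutant without stress, in peroxide and in KCl, and at -0.57 and 1.20 in wild type in peroxide and KCl. The inositol carrier gene ITR1 lay at -0.14, -1.33 and -0.02 on the mutant arrays, and at -1.25 and 0.47 in wild type in peroxide and KCl. The Golgi GDP-mannose carrier gene VRG4 lay at -0.40, -0.72 and -1.12 on the mutant arrays, and at -1.49 and -0.73 in wild type.

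Markers of the mating types were read as a check on the strains compared. Of the 7 MATa-specific genes, 2 were at least 2-fold higher in the unstressed mutant and 0 lower, with a median of 0.56. Of the 4 MATalpha-specific genes, 2 were higher and 0 lower, with a median of 0.79. Over all genes 6.18% were higher on that array and 1.55% lower. The medians over the other 4 arrays ran from -0.58 to 0.18 for the MATa-specific genes and from -0.04 to 0.64 for the MATalpha-specific ones. MF(ALPHA)2, an alpha-factor gene that MATa cells such as BY4741 do not normally express, lay at 2.28, 2.81 and 2.55 on the mutant arrays without stress, in peroxide and in KCl. It lay at 0.19 and -0.17 in wild type in peroxide and KCl. The other MATalpha-specific genes lay lower on the mutant arrays, in the same order. STE3 lay at 0.51, 0.53 and 0.64, MF(ALPHA)1 at 1.06, 0.16 and 0.64, and SAG1 at -0.02, 0.56 and 0.19. Of the MATa-specific genes, MFA1 lay there at 1.05, 1.72 and 0.82, AGA2 at 1.47, 1.52 and 0.90, and ASG7 at 0.93, 0.87 and 1.26. BAR1 lay at -0.12, -1.31 and -1.08, MFA2 at 0.41, -0.74 and -0.70, and STE6 at 0.13, -0.55 and -0.45. STE2 lay at 0.56 without stress and -0.18 in peroxide, with no value in KCl. The part of mating type or of strain background in the members' values was not tested.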

How the data were processed

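The values were 1 log2 ratio per probe and array, as the authors deposited them. Per the labels, poly(A) RNA was reverse transcribed with an aminoallyl nucleotide and coupled to Cy5 or Cy3. The scale was read as log2 of Cy5 over Cy3; its base, any background correction or normalisation, and why some values are missing, are not given in the sources used here, and natural logarithms would make every fold larger. For the wild-type Cy3 channel of the stressed mutant arrays, the source name gives only the medium, while the treatment entry gives the stress. The treatment entry was followed, and the titles also name the stress for both strains. No intensities were used here, so precision is limited by the array number.

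Of 6256 yeast probes, 4075 had 1 symbol in the platform annotation, 0 several and 2181 none. Of the symbols, 129 were updated through the RefSeq table. Probes of a gene were averaged (7 symbols), and 53 control features were left out of all counts. Counts, ranks and distances were computed in Python 3.11.15 with pandas 2.3.3 and NumPy 2.4.6, and the counting and distance steps were tested on simulated data. Values were deposited without replicates, so no test was run.

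Members, gene lists and the pairs of members compared were chosen with earlier results of these data known. The genes named are all members and SIW14. Of the other HXT, sensor pathway and hexose kinase lists every gene with a named probe could be named, and of each further list up to 3 highest and 3 lowest on an array. RSP5, MIG1 and list genes followed across further arrays were chosen after their values were seen. The 3 nearest genes of each member complete the rule. Alternatives were median centring, scaling to a common spread (median absolute deviation, MAD), natural logarithms and a 1.5-fold threshold.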

Additional observations from a re-analysis of the deposited data

Results flagged for a closer look

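HXT1, HXT6 and HXT7 passed 2-fold in opposite directions in wild type under the 2 stresses. HXT1 lay at -1.31 in peroxide and 2.78 in KCl, HXT6 at -1.64 and 1.30, and HXT7 at -1.31 and 1.45, all as log2 ratios against unstressed cells. Each value is from 1 array, both references are unstressed cells of the same strain, and the difference was not tested. The HXT6 and HXT7 probes are not independent, given how alike the 2 genes are.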

How the results depend on the processing

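Over 47 single values of the members, centring each array on its median moved 0 across the 2-fold line, and centring with scaling to the mean MAD moved 2, both of HXT2. In the unstressed mutant HXT2 went from -0.96 to -1.71, and in the mutant in peroxide from -1.06 to -0.93. No sign reversed among values past 2-fold under these 2 settings. The count of members at least 2-fold lower in the unstressed mutant went from 0 to 1 under scaling to the mean MAD, under natural logarithms and at 1.5-fold. In the mutant in peroxide it went from 2 to 1 under scaling and to 4 at 1.5-fold. For the mutant's difference in peroxide minus that without stress, the count lower went from 0 to 3 under scaling. The shifts under scaling follow from its construction, since the unstressed mutant array has the narrowest spread (scaled MAD 0.38, against 0.73 to 0.77 on the others). The other counts stayed within 1.5 times. Of all genes at 2-fold or more, scaling changed the shares in the unstressed mutant from 6.18% higher and 1.55% lower to 12.3% and 7.12%. Natural logarithms gave 9.64% and 4.07% there and 16.7% to 19.8% on the other arrays, and a 1.5-fold threshold gave 11.8% and 6.53% there and 20.9% to 23.2% on the others. For the differences between mutant arrays these shares were 8.66% to 13.2% and 12.1% to 16.1%. No paired analysis was possible because each comparison has 1 array.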
